A study of Arabidopsis thaliana with 6 samples.

Results

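UDP-glycosyltransferases (UGTs) are enzymes that move a sugar from a UDP-sugar donor onto a small molecule or a glycan. The genes described here are the rows of the authors' deposited table whose description contains UDP-glucosyl transferase, UDP-glucosyltransferase or UDP-glycosyltransferase, or whose gene name starts with UGT and a digit. That rule found 49 genes among 5311 measurements, and all 49 met it through the description, while 28 also carry a UGT name. The table compares a dme mutant with wild type (WT) in Arabidopsis thaliana, with 3 libraries of each genotype. Both groups are whole seedlings of the Ler accession, collected 7 days after germination from MS plates, and the mutant is labelled dme/-, with no allele named in the sources used here. DME is a DNA demethylase that excises 5-methylcytosine, and its gene was listed as lower in the mutant, with a log2 fold change of -1.55 per the authors' deposited table.

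The table holds, per gene, a mean normalized count over the 6 libraries, a log2 fold change read here as dme over WT, and an adjusted p. It lists only genes past a 2-fold change with an adjusted p under 0.05, so every gene named below as higher or lower passed the authors' test, and a gene called not listed may have been tested and missed a threshold or not been tested. There are no values per library, so no SD can be given and the depth is unknown. An implied mean of each genotype was computed from the mean and the fold, which assumes 3 equally weighted libraries a genotype and an unshrunken fold. In addition, an upper bound on the standard error (SE) of each log2 fold change was computed from the fold and the adjusted p, which assumes a Wald test. The labels do not say whether libraries of 1 genotype stem from different cultures or plants. The adjusted p values therefore reflect only how far these samples scatter, and that scatter may be technical.

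In plants the largest class of these enzymes acts in the cytosol on hormones, phenylpropanoids, flavonoids, glucosinolate precursors and foreign compounds. Glycosylation makes such molecules more soluble, often inactivates them and marks them for storage in the vacuole, and glucosidases can release them again. Arabidopsis UGTs are sorted by sequence into lettered groups, and many genes lie in tandem runs of close copies. A shared C-terminal stretch of the proteins binds the UDP-sugar, while the N-terminal part differs more between copies and shapes which acceptor is used.

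More of the 49 genes were higher than lower in dme, in about the proportion of the whole table. By the authors' deposited table, higher genes numbered 37 (75.5%) and lower ones 12, against a background of 72.8% higher and 27.2% lower among all listed measurements. The share of higher UGTs was thus near that background. With genes lacking reads in 1 genotype left out, the higher UGTs had a median log2 fold change of 2.20 and all higher genes one of 1.98, per the authors' deposited table. For the lower UGTs it was -1.47 against -1.38 for all lower genes, per the authors' deposited table. Past a 4-fold change lay 25 UGTs (51.0% of the 49) that were higher and 3 (6.12%) that were lower, against 38.3% and 6.46% of all listed measurements. In the annotation of assembly TAIR10.1 the same rule finds 135 protein-coding loci, and 49 of them (36.3%) were listed, against 18.5% of all 27550 annotated protein-coding loci, which include loci that may not have been tested. The remaining 86 loci of the rule were not listed. No test of these shares was made.

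**Figure D1:**
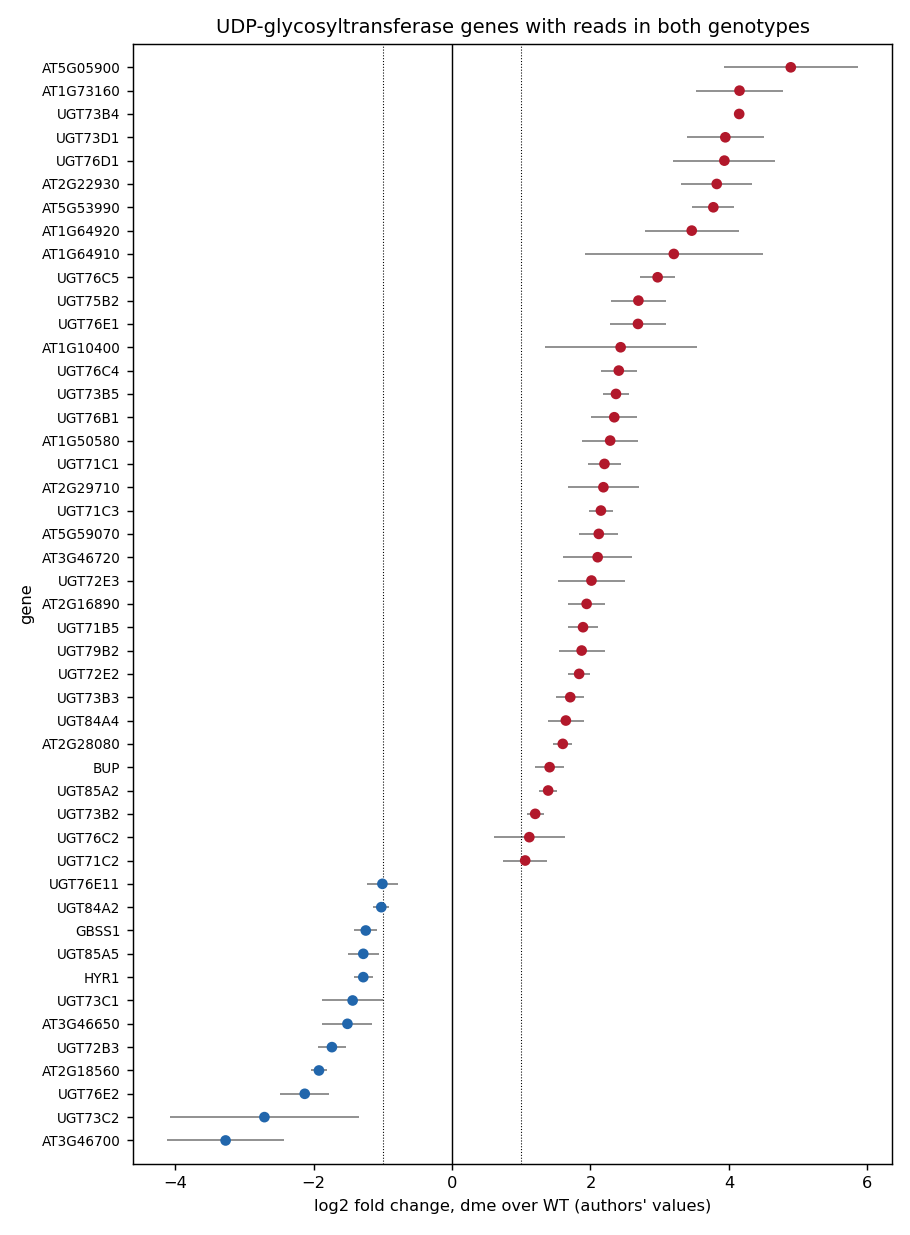
Log2 fold change (dme over WT, x axis) of the 47 UDP-glycosyltransferase genes with reads in both genotypes, 1 gene a line; red points are higher and blue points lower in dme, the bars are the upper bound of 1 SE (none for UGT73B4, whose adjusted p is listed as 0), and dotted lines mark 2-fold. The values run from -3.27 for AT3G46700 to 4.89 for AT5G05900, and the gap in the middle is the 2-fold threshold of the table.

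The UGT73 family (group D) held the most strongly supported change. This family includes stress-induced enzymes that act on flavonols, on foreign compounds and on hormones. UGT73B4, a gene induced by pathogens and toxic compounds, had implied means of 179.8 normalized counts in WT and 3187 in dme. Its log2 fold change was 4.15 (17.7-fold) per the authors' deposited table, and its adjusted p is listed as 0 there. Its neighbour UGT73B5 had implied means of 537 and 2773, and rose by a log2 fold change of 2.37 (SE at most 0.19, adjusted p 3.60e-37) per the authors' deposited table. UGT73B3 and UGT73B2 lie next to each other on another chromosome, and their folds were smaller (not tested against each other). The implied means of UGT73B3 were 158 in WT and 517 in dme, a log2 fold change of 1.71 per the authors' deposited table. For UGT73B2, annotated in the table as a flavonol 7-O-glucosyltransferase, they were 1573 and 3617, a log2 fold change of 1.20 (SE at most 0.12) per the authors' deposited table. These 4 UGT73B genes are the 4 members annotated in the table with a response to other organisms, and all 4 were higher. They are pairs of neighbouring close copies, and 72.8% of all listed measurements were higher. The share among all listed genes with that annotation was not counted.

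UGT73D1 rose from an implied mean of 8.25 to one of 127 normalized counts, a log2 fold change of 3.95 (SE at most 0.55) per the authors' deposited table. In the same family 2 UGT73C genes were lower. UGT73C1, which can O-glucosylate cytokinins and conjugate foreign compounds, had implied means of 111 in WT and 40.9 in dme and stood at -1.44 (adjusted p 0.00121) per the authors' deposited table. UGT73C2 stood at -2.71 per the authors' deposited table, but with implied means of 10.7 and 1.64 and an adjusted p of 0.0466 this fold rests on few reads. UGT73C5 (DOGT1) and UGT73C6, which glucosylate brassinosteroids and lie in the same run of genes, were not listed, nor was UGT73C7. Of 13 matched genes on the list of stress-responsive and xenobiotic transferases, most of them of this family, 6 were higher, 3 were lower and 4 were not listed. This and the other counts over lists of UGT roles are to be read beside the 36.3% of annotated UGT loci that were listed. The directions on these lists are to be read beside the 72.8% of all listed measurements that were higher. Symbols that matched no single locus, 3 on this list and 3 on the flavonoid list, are left out of the counts.

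In the UGT76 family (group H) 6 named genes were higher (75%, near the 72.8% of all listed measurements) and 2 lower. Members without a UGT name were placed in no family or group here. This leaves out AT3G46650 and AT3G46700, both lower, and AT3G46720 and AT5G05900, both higher, which lie in runs with UGT76 genes. UGT76B1 conjugates isoleucic acid, salicylic acid and N-hydroxypipecolic acid and so restrains immune signalling. Its implied means were 266 normalized counts in WT and 1352 in dme, a log2 fold change of 2.34 (SE at most 0.33, adjusted p 2.27e-12) per the authors' deposited table. UGT76D1, which glucosylates dihydroxybenzoic acids formed from salicylic acid, rose from 5.48 to 83.8 in implied means, a log2 fold change of 3.93 (SE at most 0.74) per the authors' deposited table. These 2 genes and the methyl salicylate transferase UGT71C3 were the listed members among 5 matched genes of the salicylate and N-hydroxypipecolate list, and all 3 were higher. UGT74F1 and UGT74F2, the salicylic acid glucosyltransferases of the same list, were not listed.

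The UGT76C genes encode N-glucosyltransferases. UGT76C2, which inactivates cytokinins, had implied means of 57.2 in WT and 124 in dme, and its log2 fold change of 1.12 came with an adjusted p of 0.0305 per the authors' deposited table. UGT76C4 and UGT76C5 act on nicotinate. UGT76C4 rose from 39.5 to 209.8 in implied means, a log2 fold change of 2.41 per the authors' deposited table. UGT76C5 rose from 45.1 to 353, a log2 fold change of 2.97 (SE at most 0.25, adjusted p 3.79e-33) per the authors' deposited table. AT5G05900, the last gene of that run, had the largest fold of all members with reads in both genotypes. It stood at 4.89 (SE at most 0.97) per the authors' deposited table, with implied means of 2.42 in WT and 71.8 in dme. The cytokinin N-glucosyltransferase gene UGT76C1, which lies between UGT76C2 and UGT76C4, was not listed. With UGT73C1, 1 gene of the 4 on the cytokinin list was thus higher, 1 was lower and 2 were not listed.

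UGT76E genes were listed in both directions. UGT76E1, whose product glucosylates hydroxylated jasmonate, had implied means of 25.4 in WT and 163 in dme, a log2 fold change of 2.69 (adjusted p 5.95e-11) per the authors' deposited table. UGT76E2, its neighbour and closest relative, had implied means of 311 in WT and 71.2 in dme, a log2 fold change of -2.13 (adjusted p 2.11e-09) per the authors' deposited table. UGT76E11, which acts on flavonoids, was just past the threshold at -1.01 per the authors' deposited table, with implied means of 331 and 165.

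**Figure D2:**
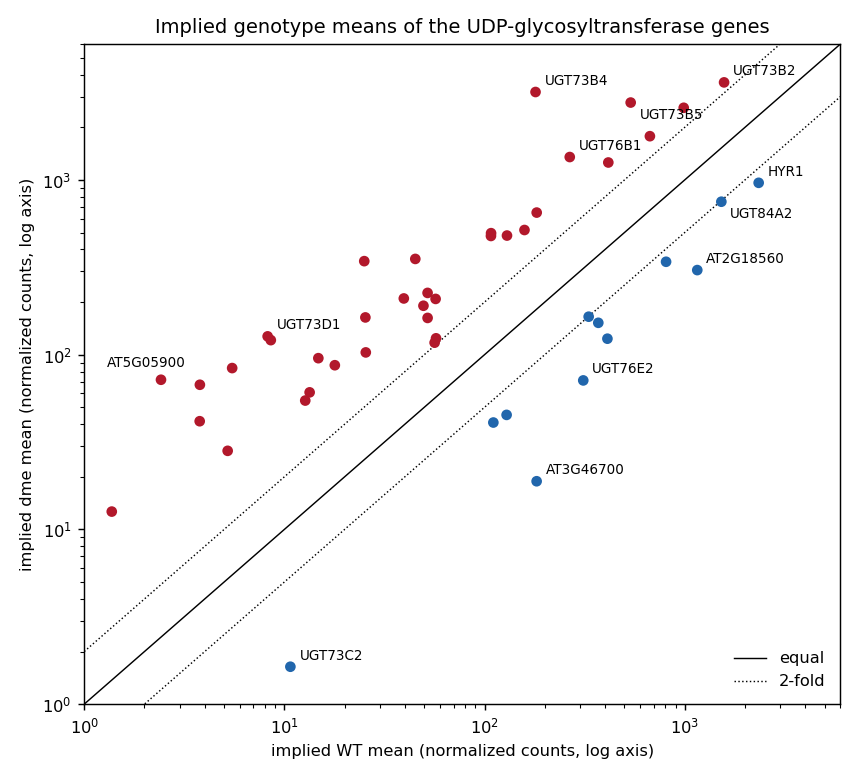
Implied mean normalized count in WT (x axis, log scale) and in dme (y axis, log scale) of the 47 UDP-glycosyltransferase genes with reads in both genotypes, 1 point a gene, red if higher and blue if lower in dme; the solid line marks equal means and the dotted lines 2-fold. UGT73B4 stands far above the line at 179.8 in WT and 3187 in dme, while UGT73C2 lies near the lower corner at 10.7 and 1.64. Counts are not per length, so points show genotypes of 1 gene and not levels between genes.

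Group E holds enzymes of phenylpropanoid and flavonoid metabolism. Of its 7 listed genes with a UGT name 6 were higher, against 72.8% of all listed measurements. The count leaves out any group E genes without such a name. HYR1 at -1.28, with best match UGT71B6, and AT2G29710 at 2.19, with best match UGT71D1, were not placed, per the authors' deposited table. AT2G18560, at -1.92 there, was not placed either. UGT71C1, which glucosylates flavonols and other phenylpropanoids, had implied means of 108 in WT and 496 in dme, a log2 fold change of 2.20 per the authors' deposited table. UGT71C3 had implied means of 108 and 478, with a log2 fold change of 2.15 (SE at most 0.18, adjusted p 4.80e-34) per the authors' deposited table. UGT71C2 was close to the threshold at 1.06, and UGT71B5 stood at 1.89 per the authors' deposited table. AT4G15270, the neighbour of UGT71B5, is described as glucosyltransferase-related and falls outside the rule, and it stood at 1.70 per the authors' deposited table.

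The monolignol transferases UGT72E2 and UGT72E3 glucosylate coniferyl and sinapyl alcohol, the units of lignin. For UGT72E2 the implied means were 182 in WT and 650.4 in dme, a log2 fold change of 1.84 (SE at most 0.16, adjusted p 4.78e-30) per the authors' deposited table. UGT72E3 had implied means of 25.5 and 103, a log2 fold change of 2.01 (SE at most 0.49) per the authors' deposited table. UGT72E1 was not listed. Among the listed genes of group E with a UGT name UGT72B3 was the lower one, with implied means of 411 in WT and 123 in dme and a log2 fold change of -1.74 (adjusted p 2.57e-17) per the authors' deposited table. Of 8 genes on the list of hydroxycinnamate and monolignol transferases, 3 were higher, 1 was lower and 4 were not listed. The count leaves out the sinapic acid transferase gene UGT84A2, lower at -1.02 per the authors' deposited table, which was put on the flavonoid list.

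Group L acts on carboxylic acids and makes glucose esters. UGT84A2, the sinapic acid glucosyltransferase that supplies sinapate esters for ultraviolet protection, was only just listed. Its implied means were 1524 in WT and 751 in dme, and its log2 fold change was -1.02 (SE at most 0.11, adjusted p 1.67e-19) per the authors' deposited table. UGT84A4, for which the table gives a possible activity on sinapic acid, went the other way, from 51.9 to 162 in implied means, at 1.64 per the authors' deposited table. UGT75B2 rose from 14.8 to 95.5 in implied means, a log2 fold change of 2.69 per the authors' deposited table. The 4 matched auxin glucosyltransferases (UGT84B1, UGT84B2, UGT74D1 and UGT74E2) and the 4 matched genes for abscisic acid (UGT71B6, UGT71B8, UGT71C5 and UGT75B1) were not listed. The flavonoid list had 2 listed genes among 7 matched, UGT71C1 and UGT84A2, while UGT78D1, UGT78D2, UGT78D3, UGT79B1 and UGT79B6 were not listed. Each gene was put on a single list, so this count includes the sinapic acid enzyme UGT84A2. It leaves out UGT73B2 and UGT76E11, which act on flavonoids but were counted on the stress-responsive and xenobiotic list.

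Among genes with a UGT name, group G gave 1 in each direction. UGT85A2 had implied means of 989 in WT and 2588 in dme, a log2 fold change of 1.39 (adjusted p 7.82e-28) per the authors' deposited table. UGT85A5, the gene beside it, had implied means of 370.1 and 152, a log2 fold change of -1.28 (adjusted p 1.31e-08) per the authors' deposited table. The listed gene named in group A, UGT79B2, which modifies anthocyanins under cold and drought, stood at 1.87 per the authors' deposited table, with implied means of 56.9 and 208.

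Of the 21 members without a UGT name, 16 were higher (76.2%, near the 72.8% of all listed measurements) and 5 lower. HYR1, which glucosylates the growth inhibitor hypostatin, had implied means of 2342 in WT and 963 in dme, a log2 fold change of -1.28 (SE at most 0.14) per the authors' deposited table. It lies in a run of genes with UGT71B6 of group E, its best match in the deposited annotation, which was not listed. AT2G18560 had the smallest adjusted p of the lower genes, 9.40e-66 per the authors' deposited table. Its implied means were 1156 in WT and 305 in dme, a log2 fold change of -1.92 (SE at most 0.11) per the authors' deposited table. AT3G46700 had the largest fall of all members, with implied means of 182 and 18.9 and a log2 fold change of -3.27 per the authors' deposited table, with an SE of up to 0.84. AT3G46650 stood at -1.51 per the authors' deposited table, with implied means of 129 and 45.2.

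Among the higher unnamed genes AT5G53990 rose from 25.1 to 343 in implied means, a log2 fold change of 3.77 (SE at most 0.30, adjusted p 1.01e-35) per the authors' deposited table. AT2G22930 rose from 8.55 to 121, a log2 fold change of 3.82 per the authors' deposited table. AT2G28080 had implied means of 415 and 1258, a log2 fold change of 1.60 (adjusted p 3.17e-31) per the authors' deposited table. The other unnamed genes of the main class that were higher with reads in both genotypes were AT1G10400, AT1G50580, AT1G64910, AT1G64920, AT2G16890, AT2G29710, AT3G46720 and AT5G05900. AT1G10400 and AT1G64910 are the least certain of these, with adjusted p values of 0.0264 and 0.0125 per the authors' deposited table.

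For 2 higher members, AT1G05675 and AT3G22250, the fold depended on the mean alone, which happens when WT has no reads, and no fold is given. Their mean normalized counts were 69.1 and 5.32 per the authors' deposited table. AT1G05675 lies beside UGT74E2, a stress-induced gene for the auxin precursor indole-3-butyric acid, which is also its closest relative in the deposited annotation and was not listed.

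The label UDP-glycosyltransferase also covers another enzyme class. In the deposited annotation 45 of the 49 genes carry the InterPro signature of UDP-glucuronosyl and UDP-glucosyl transferases. Of these 45 genes 34 were higher (75.6%, near the 72.8% of all listed measurements) and 11 lower. The remaining 4 carry the signature of glycosyl transferase group 1 instead. GBSS1, the granule-bound starch synthase that makes amylose, had implied means of 807 in WT and 340.2 in dme, a log2 fold change of -1.25 (adjusted p 2.10e-14) per the authors' deposited table. AT1G73160, AT5G59070 and BUP were higher, at 4.15, 2.12 and 1.41 on the log2 scale, per the authors' deposited table. The implied WT mean of AT1G73160 was 3.78, so the size of its fold rests on few reads. Of 13 genes on the starch and trehalose list, 1 was higher and 3 were lower (30.8% listed, against 18.5% of all annotated protein-coding loci). TPS5 was the higher one, and GBSS1, TPS8 and TPS11 were lower, while the starch synthase genes SS1 to SS4 and TPS1 were not listed. The 8 sterol and glycerolipid glycosyltransferases on the lists were not listed.

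Close copies often lay next to each other, and neighbouring members shared a direction in about the proportion of all listed neighbours. Gene order was taken from assembly TAIR10.1, and genes at most 2 places apart in the order of protein-coding genes were joined into a run. There were 9 runs with at least 2 members, which hold 23 of the 49 genes. In 5 runs all members were higher, in 1 all were lower, and 3 held both directions. Of 14 pairs of successive members of a run, 11 shared a direction (78.6%). Such members lay up to 4 places apart, since family genes that were not listed can lie between them. Of all 1875 pairs of successive listed genes at most 2 places apart, 71.4% shared a direction. The 2 shares thus differ in the spacing allowed, and no test of the difference was made.

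**Figure D3:**
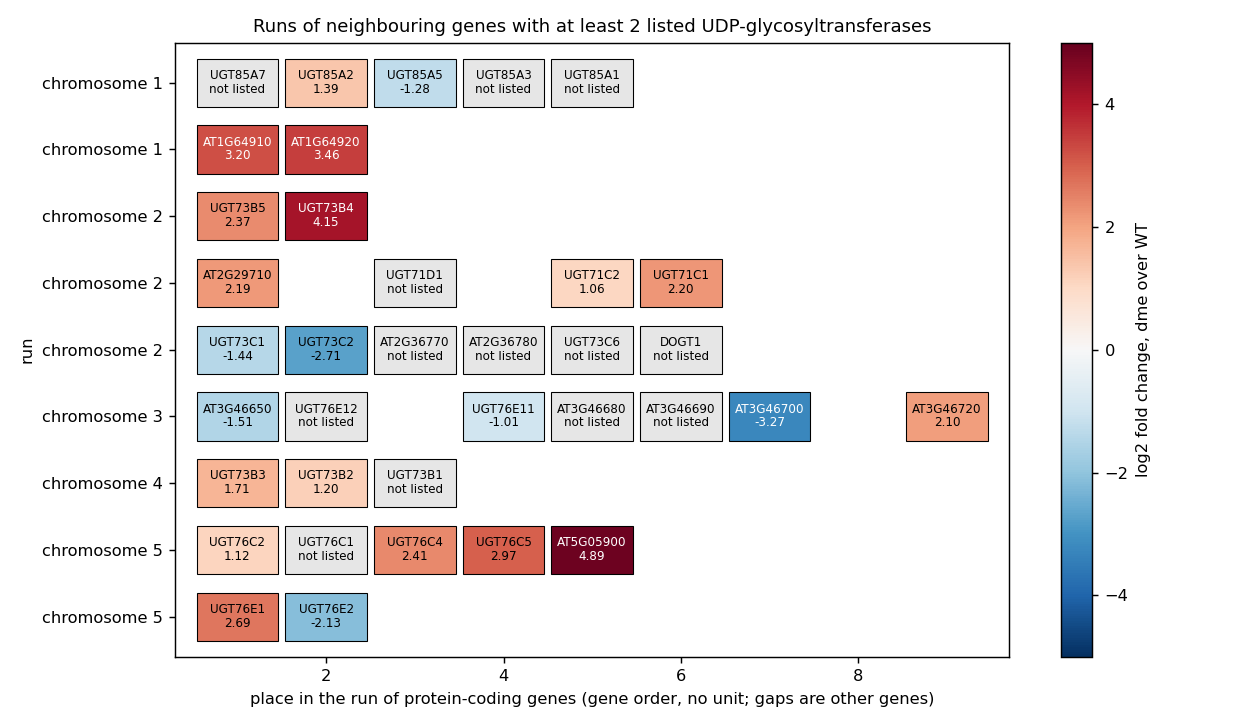
The 9 runs of neighbouring genes with at least 2 listed UDP-glycosyltransferases, 1 run a line; the x axis is the place in gene order, boxes are coloured by log2 fold change (dme over WT), grey boxes are family genes that were not listed and gaps are other genes. UGT76C2 to AT5G05900 are all higher where listed, from 1.12 to 4.89, whereas UGT76E1 and UGT76E2 stand at 2.69 and -2.13.

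The run on chromosome 5 from UGT76C2 to AT5G05900 held 4 higher members among 5 loci. The run on chromosome 2 with UGT71C1 and UGT71C2 held 3 higher members among 4 loci. On chromosome 3 a run of 7 loci around UGT76E11 held 3 lower genes and 1 higher gene, AT3G46720, at 2.10 per the authors' deposited table. Within it, AT3G46700 and AT3G46720 differed by 5.37 on the log2 scale, per the authors' deposited table. UGT76E1 and UGT76E2 differed by 4.81 on that scale per the authors' deposited table. For UGT85A2 and UGT85A5 the difference was 2.67 per the authors' deposited table. The 2-fold threshold of the table keeps any listed pair in opposite directions far apart, so these differences are a description. Of the 10 pairs in the same direction with SE bounds, 7 differed by more than their summed bounds and 3 did not. Each bound is of 1 SE, so this count is a description too and no test of a difference. UGT76E11 and AT3G46700, both lower, differed by 2.26 on the log2 scale per the authors' deposited table, against summed bounds of 1.06. AT1G64910 and AT1G64920 differed by 0.26 per the authors' deposited table, below their summed bounds of 1.96.

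The deposited annotation names for each protein its best match in Arabidopsis. For 20 of the 49 genes that match is another member, and these form 13 distinct pairs, of which 11 shared a direction (84.6%) and 2 did not. Among all 1183 such pairs of listed genes the share was 84.5%, so the UGT pairs stood at the background. The 2 exceptions are UGT85A2 with UGT85A5 and UGT76E1 with UGT76E2. In the 7 pairs that name each other, 6 shared a direction, among them UGT73B4 with UGT73B5, UGT72E2 with UGT72E3 and AT1G64910 with AT5G53990. The method of counting and any use of strand are not stated here, so reads may be split between such copies. Also, 10 of the 49 genes overlap another annotated locus in TAIR10.1, among them UGT73B4 and UGT73B5, which overlap each other. The reads of Ler plants were set against TAIR10, an assembly of the Columbia accession, and whether copies that differ between the accessions affected a fold was not tested.

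The direction was also counted by the annotated site of expression. In the deposited annotation 9 members give root as their only site, and 8 of them were higher, against a background of 96.3% of the 135 listed measurements with that annotation. The 8 are UGT73B4, UGT76C4, AT5G05900, AT5G53990, AT1G50580, AT1G64920, AT1G10400 and AT1G73160, and the lower gene is AT3G46700. Of 14 members that name root among their sites, 13 were higher (92.9%), against 96.1% of the 414 listed measurements that name it. Of 12 members annotated with 10 or more plant structures, 7 were higher and 5 lower, so that 58.3% were higher against 72.4% of all listed measurements with such breadth. Among the 26 with 1 to 9 structures, 23 were higher (88.5%), against 84.8% of all listed ones. The differences between these shares and those of the whole table were not tested.

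**Figure D4:**
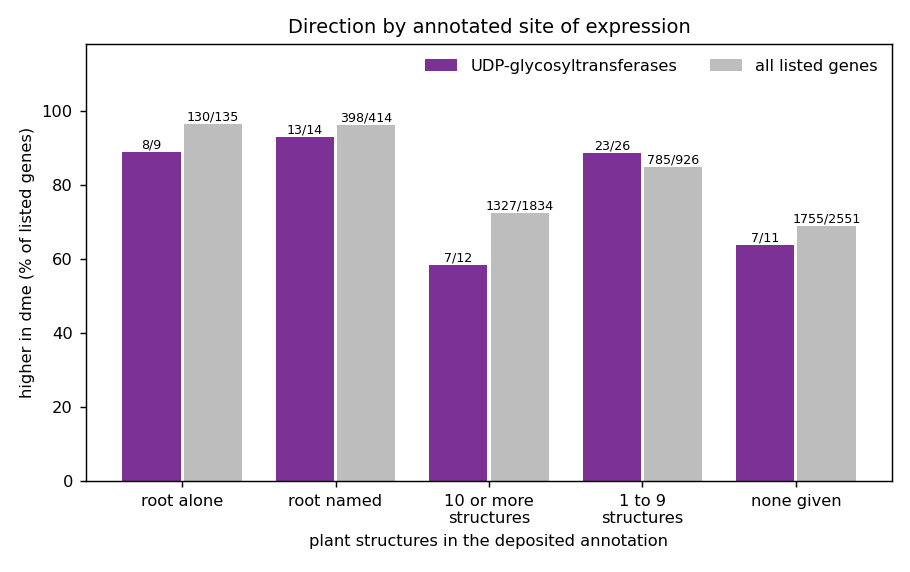
Percentage of listed genes that are higher in dme (y axis) by the plant structures in the deposited annotation (x axis), for the UDP-glycosyltransferases (purple) and all listed genes (grey), with counts above the bars; the first 2 classes are contained in the others. The bars for root stand near the top for both, at 8 of 9 and 130 of 135 for root alone.

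Most root markers were higher in dme, and most leaf markers were not listed. Both marker lists were chosen after the table was seen, so their listed shares are a description and no test. Of 20 root markers 13 were higher and 1 was lower (70.0% listed, against 18.5% of all annotated protein-coding loci). Their log2 fold changes ran from -1.01 to 6.59, with PIN2, CASP1 and RHD6 at 3.51, 3.25 and 2.94, per the authors' deposited table. The 6 root markers that were not listed include SCR, SHR, CASP5, EXPA7 and MRN1. Of 16 leaf markers 4 were lower and 0 higher, between -2.15 and -1.11 per the authors' deposited table, and 12 were not listed. The listed share of leaf markers, 25.0%, was near that background. By direction, all 4 listed leaf markers were lower and 13 of 14 listed root markers higher, against 27.2% and 72.8% of all listed measurements. The part of organ proportions in the UGT changes was not tested. In whole seedlings more cells of a type and more RNA per cell cannot be told apart.

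Genes that supply UDP-sugars were listed in 1 direction. Of 25 matched genes 11 were higher and 0 lower, a listed share of 44.0% against 18.5% of all annotated protein-coding loci. All 11 were higher, against 72.8% of all listed measurements, and no pathway list was tested. SUS1 and SUS4, sucrose synthases that release UDP-glucose from sucrose, stood at 2.40 and 3.91 per the authors' deposited table. UGD2, which oxidizes UDP-glucose to UDP-glucuronic acid, stood at 1.99, and RHM1, which makes UDP-rhamnose, at 1.37 per the authors' deposited table. The pyrophosphorylase genes UGP1, UGP2 and UGP3, which make UDP-glucose from glucose-1-phosphate, were not listed.

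The list of responses to foreign compounds had 9 higher and 0 lower genes of 18, so that 9 of 18 were listed, against 18.5% of all loci and with 72.8% of all listed measurements higher. The glutathione transferase gene GSTU24 rose from an implied mean of 98.1 to 3222 normalized counts, a log2 fold change of 5.04 per the authors' deposited table. GSTU25 rose from 8.24 to 912, a log2 fold change of 6.79 per the authors' deposited table. OPR1 and OPR2, oxophytodienoate reductase genes of the same response, stood at 3.92 and 3.62 per the authors' deposited table. The TGA factor genes TGA1 to TGA6 and SCL14, which regulate such responses, were not listed. Of 8 genes for export of conjugates 2 were listed (25.0%), a share near the 18.5% of all loci. They are ABCG37 and ABCC3, which stood at 4.13 and 1.54 per the authors' deposited table. ABCG37 exports coumarins and other phenolics from roots, and ABCC3 is a vacuolar carrier for conjugates.

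**Figure D5:**
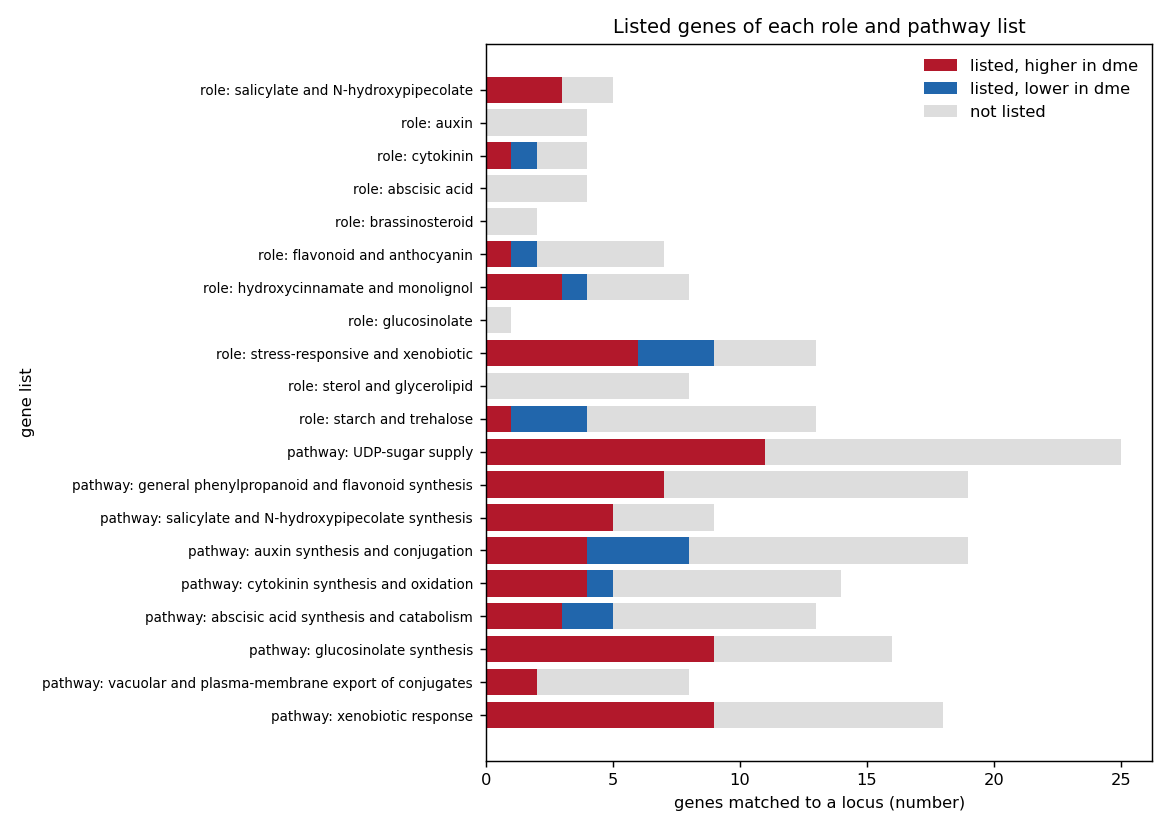
Number of matched genes (x axis) of each list of UGT roles and of connected pathways (y axis) that were listed as higher in dme (red), listed as lower (blue) or not listed (grey). Supply of UDP-sugars shows 11 higher genes of 25 and the xenobiotic response 9 of 18, whereas auxin synthesis and conjugation shows 4 in each direction. The list of auxin glucosyltransferases shows 4 genes not listed.

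Pathways that make acceptors of these enzymes had genes listed as higher, against the same background of 18.5% of loci listed and 72.8% of listed measurements higher. Synthesis of phenylpropanoids and flavonoids had 7 higher and 0 lower genes of 19 (36.8% listed). PAL1, the entry enzyme, stood at 1.46, 4CL2 at 1.94, the chalcone synthase gene TT4 at 1.66 and PAL4 at 1.30 on the log2 scale, per the authors' deposited table. The list for salicylate and N-hydroxypipecolate had 5 higher and 0 lower genes of 9 (55.6% listed). It holds synthesis genes and also DLO1 and DMR6, whose products hydroxylate salicylate. EDS5, DLO1, FMO1 and ICS2 stood at 3.39, 2.66, 2.97 and 1.89 per the authors' deposited table, beside the rise of UGT76B1. The salicylate synthesis genes ICS1, PBS3 and EPS1 were not listed, nor was DMR6. Glucosinolate synthesis had 9 higher and 0 lower genes of 16 (56.2% listed), with SOT16, MYB51, CYP83B1 and CYP79B2 at 1.76, 2.26, 1.52 and 1.99 per the authors' deposited table, while UGT74B1, the glucosyltransferase of that pathway, was not listed.

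Hormone pathways had genes listed in both directions, to be read beside the 18.5% of loci listed and the 72.8% of listed measurements higher. Auxin synthesis and conjugation had 4 higher and 4 lower genes of 19 (42.1% listed), with DAO1 and GH3.1 at 1.75 and 3.43 and GH3.6 and GH3.5 at -1.65 and -1.54 per the authors' deposited table. Cytokinin synthesis and oxidation had 4 higher and 1 lower gene of 14 (35.7% listed), with LOG7 at 1.96, CKX4 at 1.97, CKX1 at -1.42 and IPT7 at 2.03 per the authors' deposited table. Synthesis and catabolism of abscisic acid had 3 higher and 2 lower genes of 13 (38.5% listed). CYP707A1 and CYP707A3, which inactivate abscisic acid by hydroxylation, stood at 4.26 and 3.23 per the authors' deposited table. The synthesis genes ABA1 and ABA3 stood at -1.50 and 3.08, and CYP707A4 at -2.13, per the authors' deposited table. For ABA3 the implied WT mean was 3.12, so the size of its fold rests on few reads.

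The precision of the UGT folds differed between genes. The upper bound of the SE ran from 0.11 to 1.36, with a median of 0.31, over the 46 genes for which it could be computed. It was largest for UGT73C2, AT1G64910 and AT1G10400, at 1.36, 1.28 and 1.10. Close to the 2-fold threshold lay UGT76E11, UGT84A2, UGT71C2 and UGT76C2, at -1.01, -1.02, 1.06 and 1.12 on the log2 scale, per the authors' deposited table. In 4 genes the adjusted p was 0.01 or more per the authors' deposited table, namely UGT73C2, UGT76C2, AT1G10400 and AT1G64910.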

How the data were processed

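Libraries of 3 WT and 3 dme samples of whole seedlings were grouped by their titles. Trimmomatic 0.36, HISAT2 2.1.0 and StringTie 2.1.3 with the build TAIR10 are named, without their roles, in the submitters' processing notes. Not given in the sources used here are the test behind the adjusted p, the counting method and any use of strand. Per the file headers, the authors deposited a mean normalized count (a signal with unstated scaling), a log2 fold change, a linear fold and an adjusted p-value per gene. Columns with values per library numbered 0, so no new fit was made and depth is unknown. Of 5322 rows, 11 repeat another row and were counted once. Genes whose log2 mean minus absolute log2 fold change lies under -3 were read as having no reads in 1 genotype. The SE bound is the size of the log2 fold change divided by the normal score (both tails) of the adjusted p. The bound was checked on simulated data with known SE, and of the implied means the arithmetic alone was checked.

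The members and lists were chosen with earlier results of these data known, and the root and leaf lists and the check of DME after the table was seen. Of 225 symbols on the role and pathway lists, 15 matched no single locus. Named genes were every lower member, the 8 higher ones with the smallest adjusted p, the 6 with the largest folds at a mean of at least 50, members on role lists and members beside another member, and up to 4 genes of each pathway list by adjusted p. Other named genes were chosen after their values were seen. No sequence is printed, since the genome at hand is TAIR10.1 and the authors' build TAIR10. TAIR10.1 served for names and gene order, and all 49 members matched it. Alternatives tried were thresholds on p, fold and mean, shifts of all folds and narrower rules for members. Calculations used Python 3.11.15 with pandas 2.3.3, numpy 2.4.6 and scipy 1.17.1, and figures matplotlib 3.10.9.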

Additional observations from a re-analysis of the deposited data

How the results depend on the processing

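No paired analysis was possible because the deposited table holds no values per library, and leaving out replicates was not run for the same reason. The counts of 37 higher and 12 lower genes and the medians of 2.20 and -1.47 (log2) stayed within 1.5 times at an adjusted p under 0.01 and at a mean of at least 50. Without genes lacking reads in 1 genotype, which the medians leave out in any case, the counts were 35 and 12. Counts and medians also stayed within 1.5 times for both choices by InterPro signature, which were added after seeing the data. With UGT names only there were 21 higher and 7 lower genes, and at 4-fold 3 lower genes with a median of -2.71, fewer by construction. All log2 fold changes shifted by 0.5 or 1 left 6 or 3 lower genes, with a median of 3.20 for the higher ones at a shift of 1, and a shift of -1 gave a median of -2.47 for the lower ones. A shift cannot bring in genes that were not listed, and the true scaling is unknown.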
